A study of Mus musculus with 6 samples.

Results

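MHC class II genes and their transactivator gene Ciita were examined in the colorectal transcriptomes of colitis mice receiving berberine (BBR) or sulfasalazine (SASP). The members were 10 genes found by symbol among the 18268 genes listed, namely H2-Aa, H2-Ab1, H2-Eb1, Cd74, H2-DMa, H2-DMb1, H2-DMb2, H2-Oa, H2-Ob and Ciita. The family was chosen by its BBR against SASP differences in FPKM in these same 6 libraries, its members being named by symbol. The differences of the members between BBR and SASP are therefore given as a description, with no test.

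The animals were male C57BL/6 mice of 8 to 10 weeks. All 6 drank 2.5% dextran sulfate sodium (DSS), which damages the colonic mucosa, over 7 days, so the reference group carried colitis as well. In addition, 3 mice received BBR, a plant alkaloid, at 100 mg/kg and 3 mice received SASP, an aminosalicylate prodrug, at 200 mg/kg, each by daily gavage for 6 days. The samples were whole colorectal tissue, and healthy or untreated colitis mice were not analysed here.

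MHC class II molecules present peptides from endocytosed proteins to CD4+ T cells. They are made constitutively by dendritic cells, B cells and many macrophages, and interferon gamma can induce them in other cells, including the colonic epithelium. An alpha and a beta chain assemble with the invariant chain CD74, which fills the groove and guides the complex to late endosomes. There H2-DM exchanges the remaining CD74 fragment for peptide, and H2-DO, found mainly in B cells and thymic epithelium, restrains H2-DM. Transcription of these genes depends on CIITA, a coactivator that binds no DNA itself and is recruited by factors on a conserved promoter module, of which the X box and the Y box are parts.

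Promoter windows are shown for the members in which letters of this module were found, beside their levels further on. RefSeq promoters on build GRCm38.p6 were matched by symbol for 7 of the 10 members, and the 250 bases before each annotated start were searched on both strands. Letters were chosen after these sequences had been read. They were TGATTGG for the Y box and, for the X box region, either TGACGTCA or AAC with ATGATG 2 bases further on. The motifs do not overlap each other. Capitals mark the matches in windows of 57 bases, each written 5′ to 3′ on the strand of its gene.
H2-Aa (chr17:34287862-34287918, minus strand): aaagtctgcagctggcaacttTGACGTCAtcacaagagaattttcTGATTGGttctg
H2-Eb1 (chr17:34305761-34305817, plus strand): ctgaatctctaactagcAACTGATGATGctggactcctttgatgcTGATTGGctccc
H2-DMb1 (chr17:34153083-34153139, plus strand): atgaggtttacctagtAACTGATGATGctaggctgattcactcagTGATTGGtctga
H2-DMb2 (chr17:34145112-34145168, plus strand): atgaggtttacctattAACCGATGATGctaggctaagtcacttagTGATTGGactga
H2-Ob (chr17:34238801-34238857, plus strand): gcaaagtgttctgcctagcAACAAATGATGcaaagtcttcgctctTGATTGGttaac
H2-Oa (chr17:34092289-34092345, plus strand): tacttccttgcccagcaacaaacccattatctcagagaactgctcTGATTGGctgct

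TGATTGG was present in 6 of the 7 members, 45 to 92 bases before the start, against 7.23% of the 32851 RefSeq promoter windows. The spaced AAC and ATGATG pattern was found in 4 of them and in 0.119% of all windows, and TGACGTCA was found in H2-Aa and in 1.55% of all windows. An X box match followed by TGATTGG within 40 bases occurred in 5 members, with 15 to 18 bases between the motifs. This arrangement was present in 13 windows in all (0.0396%). H2-DMa has 2 annotated starts, and these letters were not in either window. A match is a description of letters and no measure of binding. The module was present in both H2-DMb1 and H2-DMb2, whose levels are set side by side below.

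Expression is given as FPKM, fragments scaled to transcript length and to the mapped reads of the library, which can be compared between genes on this per-length scale. Each library had 11518 to 12307 genes at or above 1 FPKM, and depth was estimated at 17400000 to 19300000 reads. Differences are BBR minus SASP on the log2(FPKM + 1) scale from a linear model in limma, with standard errors (SE). Of 12072 genes tested, 1069 passed an adjusted p of 0.05 (8.86%), of which 608 were lower (5.04%) and 461 higher (3.82%) in BBR mice. The epithelial markers fixed for this tissue, such as Epcam and Krt8, were abundant in all 6 libraries, with a summed level of 8470 to 10500 FPKM.

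All 10 members had a lower mean in BBR than in SASP mice, but the size of the difference varied widely among them. Of the 10 genes, 8 passed the filter of 1 FPKM in at least 3 mice, while H2-Oa and H2-Ob did not. The median difference of these 8 was -1.39, beside 0.10 for all genes tested. It was -0.79 without SASP mouse 1 and -1.64 without SASP mouse 2, over the 7 members then tested, and with no filter the median over all 10 was -1.16, beside 0.06. Ciita and H2-DMb1 were past the threshold as lower, 2 of 8, where the background was 5.04%. This count comes from the values that chose the members, and Ciita passed the filter through its SASP values alone, so it is a description from which nothing is read. Groups did not overlap for 4 of the 8, namely Ciita, H2-DMa, H2-DMb1 and H2-DMb2, beside 16.6% of all genes tested that had every BBR value below every SASP value. For 0 of the 8 did every BBR value lie above the SASP values, beside 21.3% of all genes. In whole tissue, fewer cells of a type and less RNA per cell cannot be told apart.

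**Figure D1:**
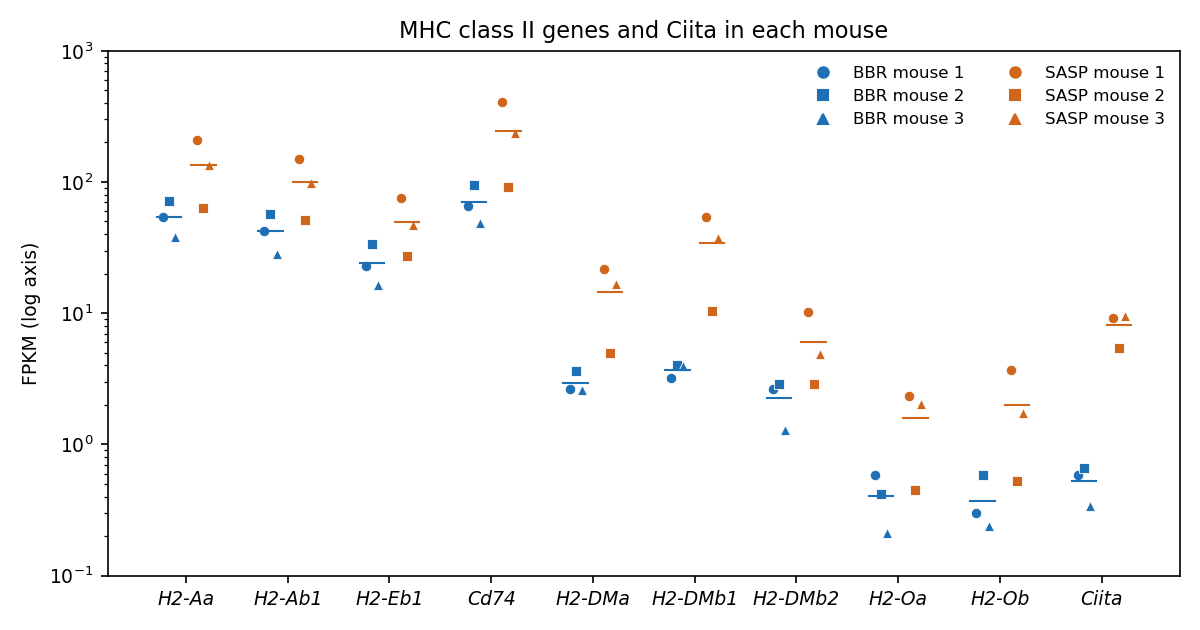
FPKM of each member (log axis) in the 3 BBR mice (blue) and the 3 SASP mice (orange), with a symbol for each mouse and a line at the group mean. Ciita separates the groups by a wide gap, whereas for H2-Aa, H2-Ab1, H2-Eb1 and Cd74 SASP mouse 2 lies among the BBR mice.

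Ciita (Gene ID 12265), the transactivator of the family, showed the widest gap between the groups. It was at 0.58, 0.66 and 0.34 FPKM in BBR mice 1, 2 and 3 and at 9.26, 5.47 and 9.52 FPKM in SASP mice 1, 2 and 3. Every SASP mouse was far above every BBR mouse, and the lowest SASP value was 8.29 times the highest BBR value. The means were 0.527 ± 0.167 and 8.08 ± 2.27 FPKM (SD, n = 3 each), a 15.3-fold ratio. The log2 difference was -2.54 (SE 0.22). Because the pseudocount of 1 exceeds the BBR values, the difference widened to -3.70 with a pseudocount of 0.1 and to -3.92 with 0.01. The BBR values rested on an estimated 35 to 70 reads per library, and the SASP values on 630 to 1000.

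The classical chains were abundant in every mouse, and their groups overlapped. H2-Aa (14960), the alpha chain of I-A, was at 54.0, 71.55 and 38.1 FPKM in BBR mice 1, 2 and 3 and at 208.5, 63.0 and 134 FPKM in SASP mice 1, 2 and 3. SASP mouse 1 was the highest, and SASP mouse 2 lay below BBR mouse 2. H2-Ab1 (14961), the beta chain of I-A, was at 42.45, 56.9 and 28.3 FPKM in BBR mice and, in SASP mice, at 149, 51.4 and 98.3 FPKM, with the mice in the same order. H2-Eb1 (14969), the beta chain of I-E, was at 22.7, 33.7 and 16.3 FPKM in BBR mice and, in SASP mice, at 75.4, 27.1 and 47.1 FPKM. The differences of H2-Aa, H2-Ab1 and H2-Eb1 were -1.18 (SE 0.43), -1.13 (SE 0.41) and -0.95 (SE 0.39), or 2.48-fold, 2.34-fold and 2.06-fold between the means. Mice of the SASP group differed by more than that, as the highest exceeded the lowest 3.31-fold for H2-Aa, 2.89-fold for H2-Ab1 and 2.79-fold for H2-Eb1.

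The alpha chain of I-E is not made in C57BL/6 mice, whose Ea locus carries a promoter deletion. H2-Ea-ps, the symbol of that locus, was listed at 0 in all 3 BBR mice and at 0.21, 0.41 and 0.21 FPKM in SASP mice, which corresponds to an estimated 3.8 to 7.8 reads. Its near absence beside abundant H2-Eb1 was shared by all 6 mice. H2-Eb2 (381091), a further beta chain gene, was at 0, 0.16 and 0.02 FPKM in BBR mice and, in SASP mice, at 1.43, 0.18 and 0.61 FPKM. Neither locus reached the filter described above.

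Cd74 (16149), the invariant chain, was the most abundant member in each of the 6 mice. It was at 65.8, 94.9 and 48.8 FPKM in BBR mice 1, 2 and 3 and at 410, 91.45 and 235 FPKM in SASP mice 1, 2 and 3. SASP mouse 2 was again inside the BBR range, and the other SASP mice were well above it. The means were 69.8 ± 23.3 and 245 ± 160 FPKM (SD, n = 3 each), a difference of -1.60 (SE 0.52). Within the SASP group Cd74 spread 4.49-fold, more than any of the classical chains.

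The peptide editor genes differed from each other. H2-DMa (14998), the alpha chain of H2-DM, was at 2.66, 3.60 and 2.61 FPKM in BBR mice and at 21.9, 4.99 and 16.7 FPKM in SASP mice. The groups did not overlap, with SASP mouse 2 at 1.39 times the highest BBR mouse, and the difference was -1.77 (SE 0.47). H2-DMb1 (14999), a beta chain of H2-DM, was at 3.19, 4.03 and 3.94 FPKM in BBR mice and at 54.0, 10.5 and 37.6 FPKM in SASP mice. BBR mice were nearly alike, and SASP mouse 2 was still 2.60 times the highest of them. The means were 3.72 ± 0.461 and 34.0 ± 22.0 FPKM (SD, n = 3 each), a 9.15-fold ratio and a difference of -2.62 (SE 0.53), the largest of all members on this scale.

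H2-DMb2 (15000), the second beta chain gene, followed the classical chains instead. It was at 2.65, 2.88 and 1.28 FPKM in BBR mice and at 10.3, 2.89 and 4.93 FPKM in SASP mice. The groups were separated by 0.01 FPKM, the last digit of the table, because SASP mouse 2 and BBR mouse 2 were almost equal. The difference was -1.0 (SE 0.40). The longest transcripts of H2-DMb1 and H2-DMb2 were 94.1% identical over 1219 aligned bases. Of the stretches of 50 bases, the read length of the study, in H2-DMb1, 27.2% occurred unchanged in H2-DMb2, and 25.2% of those in H2-DMb2 occurred in H2-DMb1. Reads from these stretches had to be divided between the genes, so the exact level of each is uncertain.

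The genes of H2-DO, the inhibitor of H2-DM, were scarce in all mice. H2-Oa (15001), the alpha chain, was at 0.58, 0.42 and 0.21 FPKM in BBR mice and at 2.32, 0.45 and 2.02 FPKM in SASP mice. H2-Ob (15002), the beta chain, was at 0.30, 0.58 and 0.24 FPKM in BBR mice and at 3.70, 0.53 and 1.75 FPKM in SASP mice. For both genes SASP mouse 2 lay inside the BBR range, and the other SASP mice were above it. Means were 0.403 ± 0.186 and 1.60 ± 1.00 FPKM for H2-Oa and 0.373 ± 0.181 and 1.99 ± 1.60 FPKM for H2-Ob (SD, n = 3 each). At an estimated 4.7 to 57 reads per library for H2-Oa and 11 to 180 for H2-Ob, counting error was a large part of the lower values.

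The order of levels was Cd74, H2-Aa, H2-Ab1 and H2-Eb1 from the top in both groups, and it held in each of the 6 mice. The group ranges of these neighbours overlapped, because mice differed more from each other than adjacent genes did. In BBR mice H2-DMb1, H2-DMa and H2-DMb2 came next with overlapping ranges, and then Ciita, H2-Oa and H2-Ob, whose order changed between mice. In SASP mice Ciita moved up in the order. It was above H2-DMb2 in 2 of 3 mice, and in SASP mouse 2 it was also above H2-DMa. Together the classical chains and Cd74 made up 93.8% to 95.5% of the summed FPKM of the members in BBR mice and 87.6% to 90.4% in SASP mice.

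Ratios within a mouse give the proportions between members. The ratio of H2-Aa to H2-Ab1, the partners of I-A, was 1.26 to 1.35 in BBR mice and 1.22 to 1.40 in SASP mice, and the groups overlapped even though the levels spread severalfold. The ratio of H2-DMb2 to H2-Ab1 also overlapped, at 0.0453 to 0.0624 in BBR and 0.0501 to 0.0692 in SASP mice. For H2-Eb1 to H2-Ab1 it was slightly higher in BBR mice, at 0.535 to 0.593 against 0.479 to 0.526.

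Other ratios separated the groups, SASP mouse 2 included. Cd74 to H2-Aa was 1.22 to 1.33 in BBR mice and 1.45 to 1.97 in SASP mice. The ratio of H2-DMa to H2-Aa was 0.0493 to 0.0685 in BBR and 0.0793 to 0.125 in SASP mice. H2-DMb1 to H2-Ab1 was 0.0751, 0.0709 and 0.139 in BBR mice and 0.364, 0.204 and 0.382 in SASP mice. The widest separation was that of Ciita to H2-Ab1, at 0.0137, 0.0116 and 0.0120 in BBR mice and 0.0623, 0.106 and 0.0968 in SASP mice. SASP mouse 2, with the least H2-Ab1 of its group, had the highest such ratio. Cd74 and H2-DMa relative to H2-Aa, and H2-DMb1 and Ciita relative to H2-Ab1, thus had lower proportions in each BBR mouse than in any SASP mouse.

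**Figure D2:**
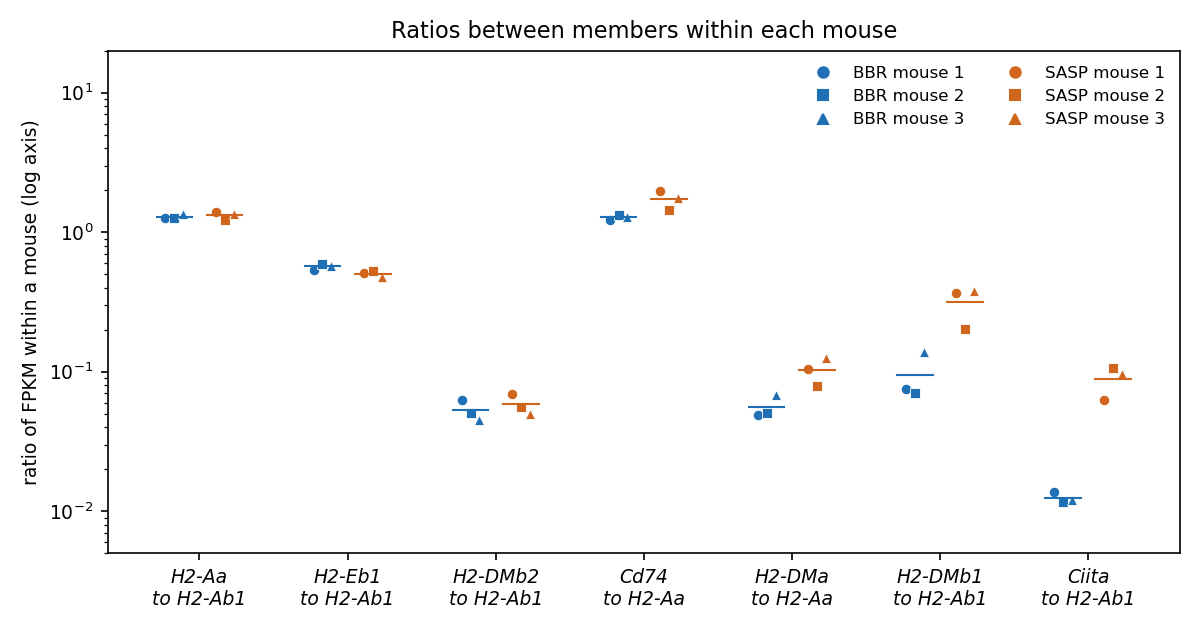
Ratio of the FPKM of 2 members within the same mouse (log axis) in BBR mice (blue) and SASP mice (orange), with a symbol for each mouse and a line at the group mean. H2-Aa to H2-Ab1 stays between 1.22 and 1.40 in all mice, while Ciita to H2-Ab1 lies between 0.0116 and 0.0137 in BBR and between 0.0623 and 0.106 in SASP mice.

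Within the SASP group the members followed the mouse. SASP mouse 1 was the highest, mouse 3 intermediate and mouse 2 the lowest in 9 of 10 members, an order that 14.8% of all genes tested shared. Ciita was the exception, with mice 1 and 3 almost equal. SASP mouse 1 exceeded SASP mouse 2 by 1.69-fold for Ciita, by 4.49-fold for Cd74 and by 6.98-fold for H2-Ob. The summed level of all 10 members was 195, 269 and 140 FPKM in BBR mice 1, 2 and 3 and 944, 258 and 586 FPKM in SASP mice 1, 2 and 3. By this sum SASP mouse 2 was within the BBR range, although its Ciita level was not.

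**Figure D3:**
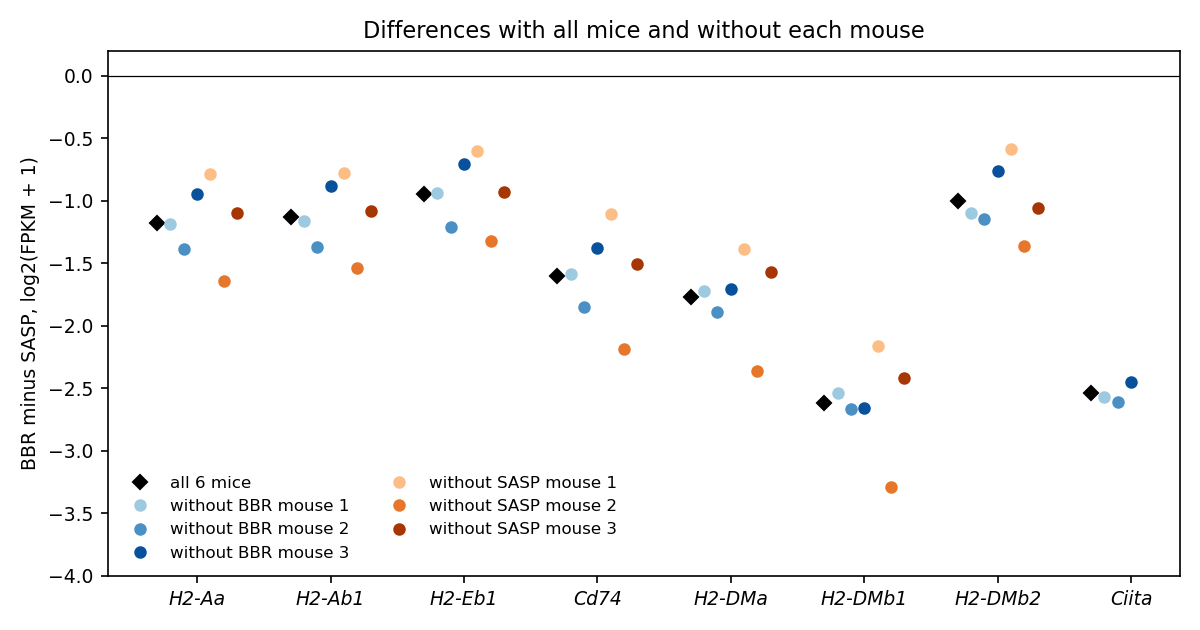
BBR minus SASP difference on the log2(FPKM + 1) scale for the 8 members tested, with all 6 mice (diamonds) and without each mouse in turn (circles). All values lie below 0, from -3.29 for H2-DMb1 without SASP mouse 2 to -0.59 for H2-DMb2 without SASP mouse 1, and Ciita has no value without a SASP mouse.

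Leaving out SASP mouse 2 widened the differences of the 7 members still tested, for example to -1.64 for H2-Aa, -2.19 for Cd74 and -2.36 for H2-DMa. Without SASP mouse 1 the differences narrowed to -0.79, -1.11 and -1.39. H2-DMb1 was no longer past the threshold without BBR mouse 1 or 2, without SASP mouse 1 or 3 and with no filter, with differences of -2.16 to -2.67. Ciita differed by -2.61 to -2.45 without each BBR mouse, and without any 1 SASP mouse it did not reach the filter of 3 mice.

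The class II region also holds genes of the class I pathway, which allowed a comparison along the chromosome. In RefSeq order, Brd2 lies between H2-Oa and H2-DMa, and Psmb9, Tap1, Psmb8 and Tap2 lie between H2-DMb1 and H2-Ob. These neighbours were named after their values were seen. Brd2, a bromodomain gene, did not pass the threshold, with 58.5, 64.7 and 61.5 FPKM in BBR mice and 43.4, 53.6 and 60.0 in the SASP group (0.24, 95% interval -0.08 to 0.56, limma adjusted p = 0.256). Tap1, a peptide transporter subunit, was lower in BBR than in SASP mice (-3.73, SE 0.19, adjusted p = 0.000468), as was its partner Tap2 (-1.49, adjusted p = 0.0175). The immunoproteasome subunits Psmb9 and Psmb8 were likewise lower, by differences of -3.20 and -2.26 (adjusted p = 0.00179 and 0.0186). These 4 genes had every BBR value below every SASP value, as did 16.6% of all genes tested. Of the members in the region, H2-DMb1, next to Psmb9, had the largest difference on this scale (-2.62). H2-Ab1, H2-Aa and H2-Eb1 had smaller differences, of -1.13, -1.18 and -0.95. H2-Ob was below the filter, and its means differed 5.34-fold, beside 2.99-fold for Tap2 and 5.24-fold for Psmb8.

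**Figure D4:**
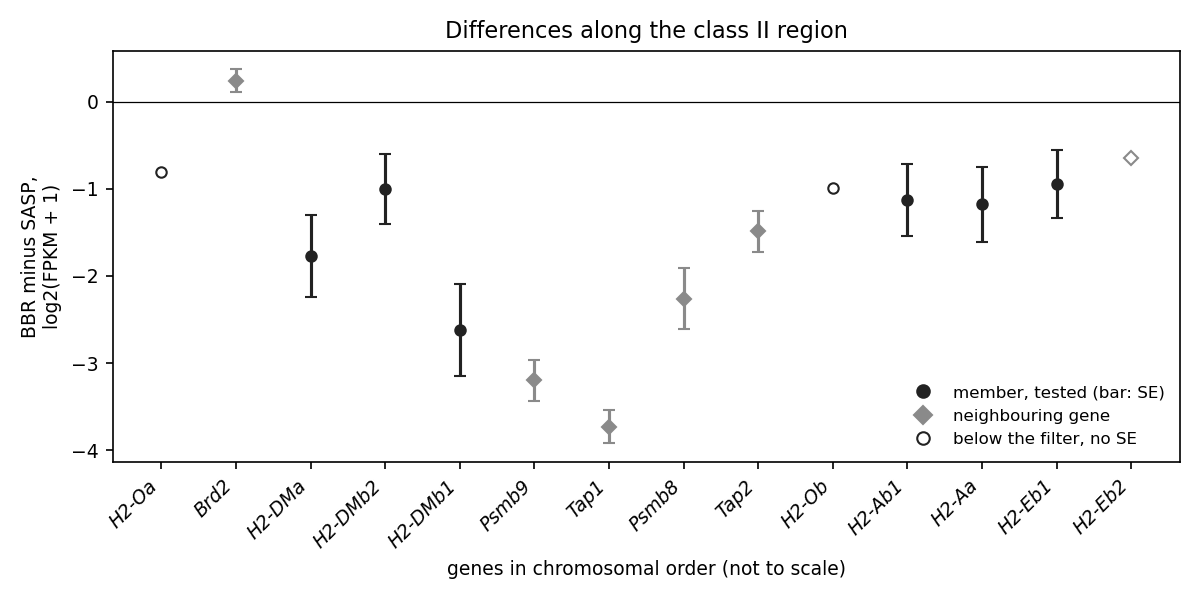
BBR minus SASP difference on the log2(FPKM + 1) scale for the genes from H2-Oa to H2-Eb2 in chromosomal order, not drawn to scale. Circles are members, diamonds neighbouring genes, bars the SE, and open symbols genes below the filter. Values run from 0.24 for Brd2 to -3.73 for Tap1, and those of H2-Ab1, H2-Aa and H2-Eb1 lie between -1.18 and -0.95.

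Genes that act with the members were counted from lists fixed for this report. Of 46 such genes tested, 5 passed the threshold as lower and 0 as higher in BBR mice, against 5.04% and 3.82% of all genes. Irf1, Socs1, Nlrc5 and Cd274 were among the 5. The lists were chosen with earlier results of these data known, so the count is a description. Nlrc5 passed the filter through its SASP values alone.

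Of the interferon gamma pathway that induces Ciita, 3 of 9 tested genes passed as lower. Irf1, a transcription factor induced by interferon gamma, was at 135, 116 and 128 FPKM in BBR mice and at 422, 329 and 484 FPKM in the SASP group, so that the groups were far apart. It was lower in BBR than in SASP mice (-1.68, SE 0.16, limma adjusted p = 0.00478). Socs1, the feedback inhibitor, was lower too (-2.94, adjusted p = 0.0132), a call lost without BBR mouse 1 or without SASP mouse 1 or 3. The other 6 tested genes of the list, kinases and receptor chains among them, did not pass, and the list's median was -0.07 beside 0.10 for all genes tested. Of the 9 tested genes 5 were below 0. Ifngr2, a receptor chain, had every BBR value above the SASP values (0.45, limma adjusted p = 0.0734), as did 21.3% of all genes tested. Ifng itself lay below the filter. It was listed at 0 in all BBR mice and at 1.19, 0.30 and 0.21 FPKM in SASP mice.

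Nlrc5, a relative of CIITA that activates class I genes, also had a wide gap between the groups. It was at 0.29, 0.36 and 0.54 FPKM in BBR mice and at 15.3, 6.24 and 12.6 FPKM in SASP mice, and no mice overlapped. The difference was -3.07 (SE 0.30, limma adjusted p = 0.00482). Like Ciita, Nlrc5 passed the filter through its SASP values alone, so a tested difference could lie in this direction only. Cd274, which encodes the checkpoint ligand PD-L1, was 1 of 2 tested costimulatory genes past the threshold. It was lower in BBR mice (-2.75, SE 0.41, limma adjusted p = 0.0164), a call lost without BBR mouse 1 or without SASP mouse 1 or 3. Icosl, the other one, differed by -0.07 (95% interval -0.69 to 0.54), and Cd80, Cd86, Cd40 and Pdcd1lg2 were below the filter.

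The factors that bind the promoter module did not pass the threshold. Of the 8 genes of the enhanceosome list, 0 passed in limma, 1 had an unadjusted p under 0.05, and 4 were below 0 in their difference. Rfx5, which binds the X box, differed by -0.37 (95% interval -0.79 to 0.04, adjusted p = 0.193). Its partners Rfxap and Rfxank differed by 0.25 (-0.22 to 0.72, adjusted p = 0.413) and 0.63 (0.12 to 1.13, adjusted p = 0.0994). Rfxank was at 16.2, 16.1 and 9.30 FPKM in BBR mice and at 9.01, 8.17 and 7.99 in the SASP group, with BBR mouse 3 close to the SASP mice. Without that mouse Rfxap and Rfxank passed as higher, with 0.46 and 0.87, where 33.8% of all genes tested passed. With array weights both passed as higher too (0.40 and 0.90), where 59.0% of all genes tested passed. Nfya, a subunit of the Y box factor, differed by -0.26 (-0.52 to 0.01, adjusted p = 0.163), and it passed as lower with median-ratio scaling (-0.34), quantile normalization (-0.31) and array weights (-0.18).

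Cofactors of CIITA had 0 of 10 genes past the threshold in limma, 2 with an unadjusted p under 0.05 and a median of 0.03. The smallest p-values were those of Cdk9 (0.34, adjusted p = 0.0836), Kat2b (-0.30, adjusted p = 0.134) and Hdac2 (-0.27, adjusted p = 0.217). Cdk9 passed as higher without BBR mouse 3 (0.41) and with array weights (0.34). Kat2b and Hdac2 passed as lower with array weights (-0.38 and -0.27). Genes of endolysosomal processing had a median of 0.19, with 0 of 12 past the threshold in limma and 5 at an unadjusted p under 0.05. The list holds proteases, a thiol reductase, a protease inhibitor and membrane proteins of the loading compartment. Ctsl, a cathepsin, was at 176, 172 and 214 FPKM in BBR mice and at 75.45, 135 and 108 in the SASP group, so all BBR values were higher, at an adjusted p of 0.0557 (0.85, SE 0.21). Ctsd and Ctse also had every BBR value above the SASP values (0.43 and 0.42, adjusted p = 0.0628 and 0.0851). Ctsl and Ctsd passed as higher with quantile normalization (0.94 and 0.51), with array weights (0.73 and 0.47) and without BBR mouse 3 (0.75 and 0.48), and Ctse passed with array weights (0.58). Ctss, the main protease of the invariant chain in antigen-presenting cells, was at 349 to 431 FPKM in BBR mice and 368 to 453 in the SASP group, and the groups overlapped.

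On the side of the T cell, the list of CD4 T cell recognition held 2 tested genes, and 0 passed in limma or at an unadjusted p under 0.05. Cd3g and Cd247 differed by 0.17 and 0.07 (adjusted p = 0.564 and 0.863). Cd4 itself was at 0.82, 1.59 and 0.51 FPKM in BBR mice and at 0.70, 0.60 and 0.49 in the SASP group, with overlapping groups. Of the 3 genes of class II turnover 2 were tested, and 0 passed in limma or at an unadjusted p under 0.05. Cd83, which protects surface class II from removal, differed by 0.45 (adjusted p = 0.338) and passed as higher without BBR mouse 3 (0.74) and with array weights (0.66). March8, a ubiquitin ligase that removes class II from the surface, was at 24.0, 26.4 and 19.8 FPKM in BBR mice and at 23.2, 22.1 and 23.0 in the SASP group (0.03, 95% interval -0.27 to 0.32, adjusted p = 0.891), with a sign that depended on the scaling (-0.06 with median-ratio scaling). March1, a related ligase of professional antigen-presenting cells, was below the filter, at 0.33, 0.38 and 0.30 FPKM in BBR mice and at 1.17, 0.46 and 1.04 in the SASP group, with SASP mouse 2 again the lowest of its group.

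Markers of cells that carry class II differed in how they moved with the members. B cell markers were lower in BBR mice, with 7 of 10 genes not overlapping between the groups, beside 12.2% of all genes above 0 in any mouse. Of the 10 genes 2 passed the filter, and some of the gaps between the groups were narrow and at low levels. Fcer2a, for example, was at 0.28 FPKM in SASP mouse 2 and at 0.21 in BBR mouse 1. The summed level of the B cell markers was 1.39 to 3.21 FPKM in BBR mice and 40.1, 6.25 and 19.8 FPKM in SASP mice 1, 2 and 3. The order of the SASP mice seen in the members was present in 10 of 10 B cell genes. Among the defining genes, Pax5 overlapped, at 0, 0.08 and 0 FPKM in BBR mice and at 0.84, 0.07 and 0.51 in SASP mice. Cd79a was at 1.56, 1.38 and 0.05 FPKM in BBR mice and at 13.35, 2.32 and 7.10 in SASP mice. Its difference did not pass (-1.97, limma adjusted p = 0.0716). Of the 2 tested genes Cd79b passed as lower (-1.63, limma adjusted p = 0.0489), and it had passed the filter through its SASP values alone. The part of B cells in the levels of the members was not tested.

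Pan-leukocyte markers had a summed level of 21.5 to 36.6 FPKM in BBR mice and of 76.3, 35.4 and 53.3 FPKM in mice 1, 2 and 3 of the SASP group. All 8 had the same order of SASP mice, 7 of 7 tested were below 0 with a median of -0.66, and 0 passed in limma (5 at an unadjusted p under 0.05). Summed macrophage and monocyte markers overlapped, at 51.3 to 83.0 FPKM in BBR mice and 71.5 to 83.0 in the SASP group, and 1 of these 10 genes had that order. Ccr2 was the 1 gene of that list past the threshold (-0.73, adjusted p = 0.0390). Dendritic cell markers without Irf8, which is also expressed by B cells and macrophages and responds to interferon, summed to 3.87 to 4.97 FPKM in BBR mice and 4.10 to 5.82 in the SASP group. Irf8 was at 17.7 to 19.0 and 69.9 to 109 FPKM and was lower in BBR mice (-2.21, limma adjusted p = 0.00171). T cell markers summed to 4.07 to 5.14 and 2.87 to 7.38 FPKM, with 0 of 2 tested genes past the threshold in limma or at an unadjusted p under 0.05. The order of the SASP mice was present in 6 of 7 T cell genes and 4 of 10 dendritic cell genes.

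Smooth muscle markers moved the opposite way. They summed to 2800, 2890 and 6650 FPKM in BBR mice 1, 2 and 3 and to 711, 2230 and 1630 FPKM in SASP mice 1, 2 and 3, with 0 of 8 past the threshold in limma and 7 at an unadjusted p under 0.05. BBR mouse 3, with the most smooth muscle RNA, had the least H2-Aa, H2-Ab1, H2-Eb1 and Cd74. SASP mouse 1, with the least, had the most. BBR mouse 2 did not follow this order. It had more smooth muscle RNA than BBR mouse 1 and SASP mouse 2, and also more of each of these class II genes and Cd74. Summed epithelial markers overlapped, at 8630 to 10500 FPKM in BBR mice and 8470 to 8870 in the SASP group. In limma Vil1 was lower (-0.55, adjusted p = 0.0327) and Cdx2 higher (1.5, adjusted p = 0.0422) in BBR mice. Whether these calls hold with a mouse left out was not examined. The part of tissue composition in the members' differences was not tested.

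**Figure D5:**
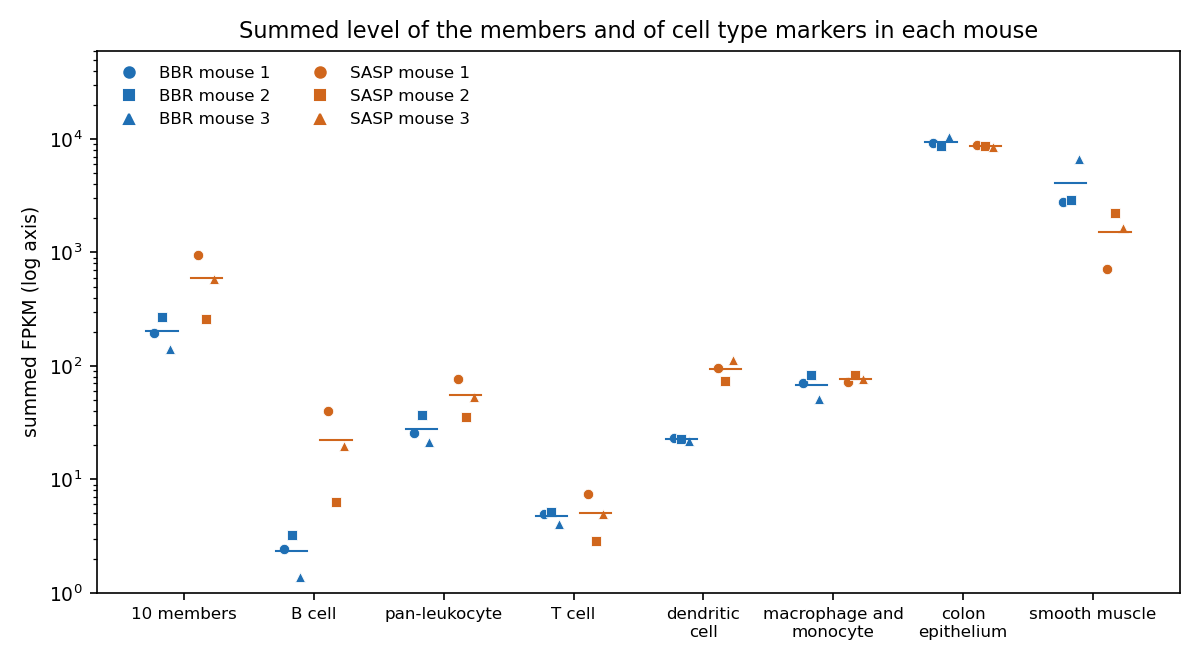
Summed FPKM (log axis) of the 10 members and of each list of cell type markers in BBR mice (blue) and SASP mice (orange), with a symbol for each mouse and a line at the group mean. The summed members and the B cell, pan-leukocyte and T cell markers share the order of the SASP mice, with mouse 1 the highest and mouse 2 the lowest, and smooth muscle markers have the reverse order.

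The genes most like the members were sought by the root mean square difference of centred log2(FPKM + 1) values over the 6 mice, a measure that used the same libraries. Values were not scaled, so a larger difference counts as distance even where the mice keep the same order. For the mean profile of H2-Aa, H2-Ab1, H2-Eb1 and Cd74 the nearest genes outside the list included Ccrl2, Cd37, Ephb6 and H2-Q7, at 0.16 to 0.21. H2-DMb2 was equally near (0.20), whereas Ciita (0.76) and H2-DMb1 (0.79) were far down the list, with ranks of 2415 and 3188. Ciita and H2-DMb1 had larger BBR minus SASP differences (-2.54 and -2.62) than the classical chains and Cd74. These ranks therefore do not separate size from pattern. Cd37, a tetraspanin of B cells and other leukocytes, was at 0.71, 1.52 and 0.72 FPKM in BBR mice and at 6.22, 1.41 and 3.57 in the SASP group, again with SASP mouse 2 inside the BBR range.

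For Ciita the nearest genes were Gbp10, Irf8, Gbp9, Gm12185 and Rnf213, at 0.19 to 0.22. The nearest members were H2-DMb1 (0.49) and H2-DMa (0.54), and the classical chains and Cd74 were at 0.67 to 0.86. Gbp9, a guanylate-binding protein gene, was at 0.77, 0.98 and 0.98 FPKM in BBR mice and at 9.42, 6.41 and 15.0 in the SASP group. Gbp10 was listed at 0 in all BBR mice, and it belongs to a family of close paralogs whose reads may be divided. By this measure, in which the size of a difference counts, Ciita and the classical chains had different neighbours, with no gene common to both sets of 5.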

How the data were processed

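RNA-seq of whole colorectal tissue covered 3 BBR and 3 SASP mice, grouped by the treatment labels. Mice were numbered in accession order, and these numbers pair no mice. The authors deposited FPKM values per gene and mouse. Per the study's methods, reads were filtered with SOAPnuke and aligned with Bowtie2 2.2.5, and expression was calculated with RSEM 1.2.12. The submitters' processing notes name build mm9, and the annotation is not given in the sources used here. The labels name an Illumina TruSeq kit, whereas the methods describe ribosomal RNA depletion and single-end reads of 50 bases on DNA nanoballs, with rectal samples. RSEM divides reads shared by paralogs.

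FPKM are not counts, so log2(FPKM + 1) was fitted with limma 3.58.1 in R 4.3.3 (mean-variance trend, two-sided, Benjamini-Hochberg over all genes tested, threshold 0.05). Genes needed 1 FPKM in at least 3 mice. Steps were tested on simulated data. Alternatives were other pseudocounts, filters and scalings, array weights, no trend and each mouse left out. P-values set each group difference against the spread between mice within the groups, 3 per group, with variances moderated over all genes. Members and lists were chosen with earlier results of these data known.

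Named genes were all 10 members, the genes H2-Ea-ps, H2-Eb2, Rfx5, Rfxap, Rfxank, Irf1 and Nlrc5, up to 3 genes with the smallest p of each pathway list, and the 5 genes nearest in profile. Some genes that this rule or the lists cover are not reported here. Others were named after their values were seen. Symbols stored as dates were restored to March names by gene ID. The rule listed H2-Ea, and the table gives H2-Ea-ps. Depth was estimated from genes above 0 in 1 mouse only, on the assumption that the typical value is 1 read, with GENCODE M21 transcript lengths. It rests on 31 to 56 genes per library. Promoters came from RefSeq (GRCm38.p6), not the build of the processing.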

Additional observations from a re-analysis of the deposited data

How the results depend on the processing

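All 8 tested members stayed lower in BBR mice in every alternative that tested them, and their median of -1.39 ranged from -0.79 (without SASP mouse 1) to -1.64 (without SASP mouse 2). No paired analysis was possible because the labels give the groups no shared replicate numbers. Over all genes 1069 calls became 608 with no filter, 1713 with median-ratio scaling, 1737 with quantile normalization and 7126 with array weights, where 65.1% of calls were higher against 43.1%. They ranged from 51 (without SASP mouse 3) to 4018 (without BBR mouse 3) when a mouse was left out. Members past the threshold numbered 2 with all mice and 1 with no filter (Ciita). With a mean of at least 5 FPKM the number was 1 (H2-DMb1, as Ciita was not tested). It was 3 with median-ratio scaling and 3 with quantile normalization, where 14.2% and 14.4% of all genes tested passed. With array weights it was 8, where 59.0% of all genes tested passed, and it was 0 to 3 without a mouse. The 0 came without SASP mouse 1 or 3, where 0.494% and 0.428% of all genes tested passed. Genes of the pathway lists past the threshold numbered 5 with all mice, 10 with quantile normalization, 29 with array weights and 2 to 16 without a mouse, with 2 without SASP mouse 1 or 3, 3 without BBR mouse 1 and 16 without BBR mouse 3. The cause of these changes was not tested. Icosl changed sign without BBR mouse 3 (0.15) and SASP mouse 3 (0.08), with a range of -0.29 to 0.15, Cd3g without SASP mouse 2 (-0.02 to 0.27 over all mice left out), and Cd247 without SASP mouse 2 (-0.09 to 0.21) and with array weights (-0.13). March8 changed sign with median-ratio scaling (-0.06), quantile normalization (-0.00) and without BBR mouse 2 (-0.06 to 0.14). Of 502 values of 38 genes under the 14 alternatives, 444 kept direction and side of the threshold, 37 gained a call, 13 lost it and these 8 changed sign. The calls of Tap1, Tap2, Psmb8, Psmb9, Cd79b, Ccr2, Vil1 and Cdx2 were not followed under the alternatives. Depth limits H2-Oa, H2-Ob, H2-Eb2 and H2-Ea-ps, which rest on few reads.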
